A study of Homo sapiens with 8 samples.

Results

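Nuclear tRNA genes were examined as LARP6 binding sites in human hepatic stellate cells, which make collagen in the scarring liver. The regions are those in the authors' peak lists whose midpoint lies in a tRNA gene of the RefSeq annotation of GRCh38, extended by 50 nt on each side. The annotation holds 497 such genes among 59788 gene entries, 423 annotated as tRNA and 74 as tRNA pseudogenes. They held 402 of the 176826 clusters tested in 4 libraries, and 33 of 627 control and 22 of 1008 TGFβ1 peaks in the authors' lists made from both replicates. The genes fall into 52 groups by amino acid and anticodon, counting initiator methionine (TRX) apart from elongator methionine.

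A tRNA carries an amino acid to the ribosome and reads the codon through its anticodon. It is made by RNA polymerase III as a precursor whose ends are trimmed, to which CCA is added at the 3′ end, and from which an intron is spliced in some families such as Arg-TCT and Tyr-GTA. La, the founding member of the protein superfamily to which LARP6 belongs, is known for binding the 3′ ends of new RNA polymerase III transcripts, while LARP6 is known for binding a stem-loop in collagen mRNAs. In a name such as TRR-TCT1-1, R is the amino acid (arginine), TCT the anticodon in DNA letters, the next number the family of genes with 1 mature sequence, and the last number the locus.

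The series has 8 samples of wild-type stellate cells grown in serum-containing medium, with 2 LARP6 immunoprecipitates and 2 size-matched inputs in each of 2 conditions. The TGFβ1 cells received 5 ng/ml of this activating cytokine, and the control cells carry the words untreated and DMSO in their labels, so whether a vehicle was given is not known. The assay is eCLIP, in which ultraviolet light (254 nm, 400 mJ/cm2) links RNA to protein before RNA fragmentation, pull-down and sequencing. Whether the cells are an established line, and whether replicates came from separate cultures, is not given in the sources used here, so the spread between replicates may be technical. Of 10 marker genes of stellate cells and fibroblasts, 8 had tested clusters in all 4 libraries, among them COL1A1, ACTA2 and PDGFRB, while DES and LRAT had none. None of 4 hepatocyte or 3 endothelial markers had a cluster, and CD68 of 3 macrophage and KRT7 of 3 cholangiocyte markers did. Clusters show that an RNA was sequenced, not how much of it a cell holds.

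Every log2 fold and −log10 p-value below is the authors' own, for the immunoprecipitate over its size-matched input. A cluster is called enriched here where both are at least 3. The lists hold no read counts, so the depth is unknown, and tested clusters number 51273 and 39880 in the control and 31137 and 54536 in the TGFβ1 libraries. In control replicates 1 and 2, 26 of 98 (26.5%, 95% Wilson interval 18.8 to 36.0) and 35 of 102 (34.3%, 25.8 to 43.9) tRNA clusters were enriched. In TGFβ1 replicates 1 and 2, 27 of 90 (30.0%, 21.5 to 40.1) and 19 of 112 (17.0%, 11.1 to 25.0) were. Among all tested clusters, the same limits were passed by 1.21%, 2.09%, 2.69% and 3.64% in these libraries, so the share in tRNA genes was higher in each of the 4. The intervals cover counting error only, and neighbouring clusters of a gene are not independent. In the same order, the enriched clusters lay in 11, 14, 11 and 7 tRNA genes of 55, 61, 51 and 64 with a tested cluster, against 2.84%, 4.85%, 6.26% and 10.8% of all genes with a cluster.

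Most tRNA clusters were not enriched, and their folds were widely spread. The median log2 fold of tRNA clusters was 0.90 and 1.32 in the control and 1.41 and 0.75 in the TGFβ1 libraries, beside 0.38, 0.85, 0.94 and 0.82 over all clusters. The interquartile range of tRNA clusters ran from −0.71 to 3.25 in control replicate 1, where that of all clusters ran from −0.21 to 0.79. In control replicate 2 the tRNA range was −0.38 to 3.81, and in the TGFβ1 replicates it was −0.82 to 3.10 and −0.91 to 2.74. Between 30.4% and 40.2% of tRNA clusters per library were below the input, against 19.0% to 26.8% of all clusters. The tRNA genes thus held both a larger share of enriched clusters and a larger share below the input than the libraries as a whole.

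Only 70 of the 497 genes had a tested cluster in any library, and 48 had one in all 4. Of these 70 genes, 16 were enriched in at least 1 library and 7 in all 4, which is 14.6% of the 48, against 3.79% of all genes tested in all 4 libraries. The 7 were TRR-TCG1-1, TRR-TCT1-1, TRR-TCT3-2, TRR-TCT4-1, TRC-GCA3-1, TRU-TCA1-1 and TRK-TTT1-1. Enrichment was seen in 13 of the 32 anticodon groups with a cluster, spread over 8 amino acids. None of the 35 leucine and 16 phenylalanine tRNA genes had a tested cluster, so nothing can be said of LARP6 at them. Annotated pseudogenes were rarely covered, with 2 of 74 tested, of which TRK-TTT14-1 was enriched in control replicate 2.

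**Figure D1:**
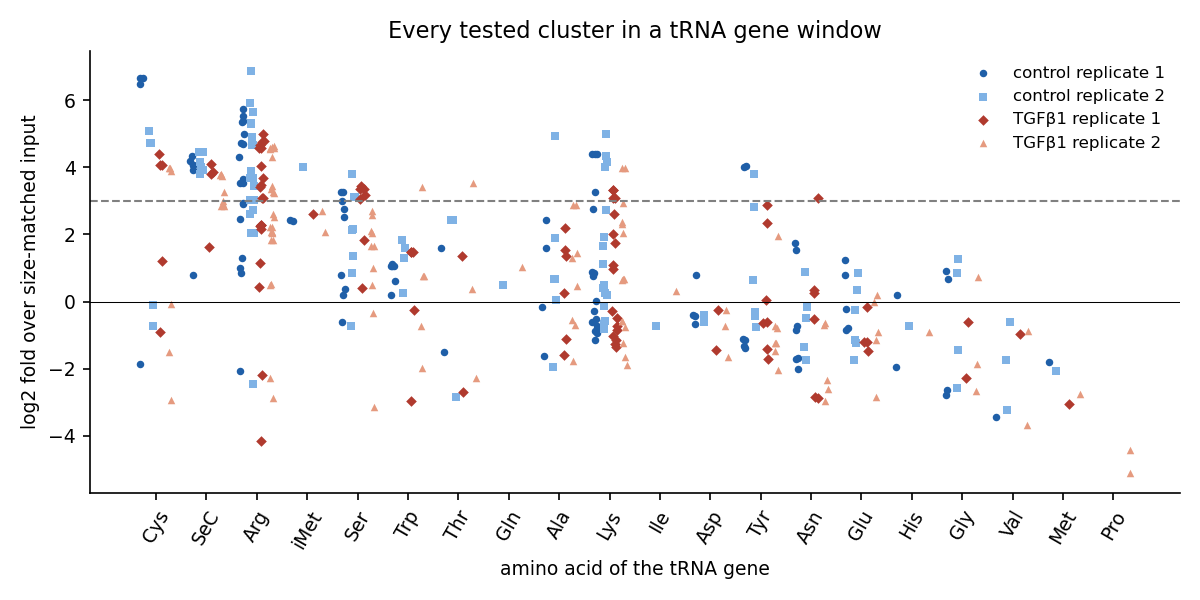
The log2 fold over size-matched input (vertical axis) of every tested cluster in a tRNA gene window, by amino acid (horizontal axis, ordered by the median over all 4 libraries) and library; the dashed line is the fold limit of 3. The highest arginine, selenocysteine, cysteine and lysine clusters pass the line in all 4 libraries, and proline, elongator methionine and valine clusters lie below 0.

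Arginine tRNA genes held more enriched clusters than any other amino acid. In control replicates 1 and 2, 11 of 18 and 16 of 21 Arg clusters were enriched, and in TGFβ1 replicates 1 and 2, 12 of 20 and 10 of 24 were. They made 42.3%, 45.7%, 44.4% and 52.6% of the enriched tRNA clusters of the 4 libraries. Their median log2 fold was 3.59, 3.69, 3.26 and 2.37, whereas that of all other tRNA clusters was 0.72, 0.68, 0.37 and 0.26. Of all other tRNA clusters together, 18.8%, 23.5%, 21.4% and 10.2% were enriched, but 12 of the 19 other amino acids with a tested cluster had none enriched in any library. A high median was not particular to arginine. Selenocysteine medians were 4.07, 4.08, 3.84 and 3.13, with 5 of 6, 6 of 6, 3 of 4 and 4 of 8 clusters enriched. Cysteine medians were 6.57, 4.73, 4.06 and 1.91, with 3 of 4, 3 of 5, 3 of 5 and 3 of 6 enriched. For each of these 2 amino acids, 1 gene held all enriched clusters. Of 30 arginine genes, 9 were tested, each in all 4 libraries, and 6 of them were enriched in at least 1.

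TRR-TCG1-1 (GRCh38, chromosome 15, 89335073 to 89335145, plus strand) had the highest fold of any tRNA gene in 3 of the 4 libraries. Its highest log2 fold was 5.74 and 6.88 in the control and 5.00 and 4.63 in the TGFβ1 libraries, and all of its clusters in each library were enriched. Both control values were above both TGFβ1 values, with means of 6.31 ± 0.80 and 4.82 ± 0.26 (SD, n = 2). By position this gene overlaps the long non-coding RNA gene POLG-DT, whose strand is not known here and in which no cluster was tested elsewhere. The other tested gene with this anticodon, TRR-TCG3-1, reached only 1.29, 2.05, 1.15 and 0.53 and was not enriched in any library. Genes of 1 anticodon therefore differed by several units of log2 fold in every library.

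All 3 tested Arg-TCT genes were enriched in all 4 libraries, and 3 further genes of this anticodon had no tested cluster. TRR-TCT3-2 (chromosome 11, 59551294 to 59551379, plus strand) had highest log2 folds of 5.40 and 5.34 in control, and 4.78 and 4.59 with TGFβ1. TRR-TCT1-1 (chromosome 1, 93847573 to 93847657, plus strand) had 4.31 and 4.90 in control, and 3.48 and 3.45 with TGFβ1. Both genes are longer than most, at 86 and 85 nt, and at both the −log10 p of the highest cluster was at its cap of 400 in every library, so their order by p cannot be read. TRR-TCT4-1 (chromosome 1, 159141611 to 159141684, minus strand), at 74 nt, had 4.71 and 3.46 in control, and 4.05 and 3.23 with TGFβ1. For the first pair of genes the conditions did not overlap, with control higher, and for TRR-TCT4-1 they did.

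The remaining arginine genes ranged from enriched to below the input. TRR-CCT1-1 (chromosome 17, 75033906 to 75033978, plus strand) had 3.53 and 3.69 in control, and 3.68 and 2.23 with TGFβ1, so TGFβ1 replicate 2 alone was below the limit. TRR-CCT4-1 stayed between 1.85 and 2.72, under the fold limit, and so was not enriched. The −log10 p of its highest cluster was at the cap of 400 in every library. TRR-ACG2-1 (chromosome 3, 45688999 to 45689071, minus strand) had 3.65 and 3.89 in control, and 2.27 and 2.08 with TGFβ1, and was enriched in both control libraries and in neither TGFβ1 library. With the same anticodon, TRR-ACG1-3 was below the input in all 4 libraries, at −2.05, −2.46, −2.19 and −2.88 for its highest cluster. No Arg-CCG gene had a tested cluster.

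Selenocysteine tRNA reads a UGA codon that is recoded in selenoprotein mRNAs. Its gene TRU-TCA1-1 (chromosome 19, 45478601 to 45478687, minus strand, 87 nt) had highest log2 folds of 4.32 and 4.47 in control, and 4.09 and 3.81 with TGFβ1. Enriched clusters there numbered 5 of 5, 6 of 6, 3 of 3 and 4 of 8 in these libraries. The values lay close together, and those of control (4.40 ± 0.10) were just above those of TGFβ1 (3.95 ± 0.20, SD, n = 2). The second selenocysteine locus, TRU-TCA2-1, was tested in replicate 1 of each condition, at 0.79 and 1.62, and was not enriched.

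Among cysteine genes, enrichment was limited to TRC-GCA3-1 (chromosome 7, 149589073 to 149589144, minus strand) of 5 tested. It had 6.67 and 5.07 in control, and 4.41 and 3.97 with TGFβ1, with all 3 of its clusters enriched in each. The highest of these is also the highest tRNA value of control replicate 1. The other tested Cys-GCA genes had values from −2.94 to 1.20, and TRC-GCA2-3 was below the input in all 4 libraries.

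Of 8 tested lysine genes, TRK-TTT1-1 (chromosome 16, 73478317 to 73478389, minus strand) was enriched in every library, at 4.40 and 5.00 in control and 3.33 and 3.99 in TGFβ1. TRK-TTT14-1, an annotated pseudogene, had 3.25 and 4.02 in control, and 2.62 and 2.95 with TGFβ1. It was enriched in control replicate 2, since the p limit was not met in replicate 1. TRK-CTT1-2 was enriched in TGFβ1 replicate 1 alone, at 3.08, with 2.76, 1.67 and 2.32 in the other libraries. The remaining 5 tested lysine genes were not enriched in any library.

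A further 5 genes passed the limits in 1 to 3 libraries. TRS-AGA2-6, a serine tRNA gene, had 3.25 and 3.81 in control, and 3.36 and 2.58 with TGFβ1. TRS-GCT3-1, also of serine, had 2.99 and 2.16 against 3.45 and 2.70, and was enriched in TGFβ1 replicate 1 alone. TRY-GTA5-2, a tyrosine tRNA gene of 89 nt, had 4.04 and 3.82 in control, and 2.87 and 1.96 with TGFβ1. Its conditions did not overlap, and both TGFβ1 values were under the limit. TRA-TGC2-1 of alanine (2.42 and 4.93 against 2.20 and 2.89) and the initiator gene TRX-CAT1-4 (2.45 and 4.00 against 2.62 and 2.71) were enriched in control replicate 2 alone. For these last 2 genes the replicates of control differed by more than the conditions.

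**Figure D2:**
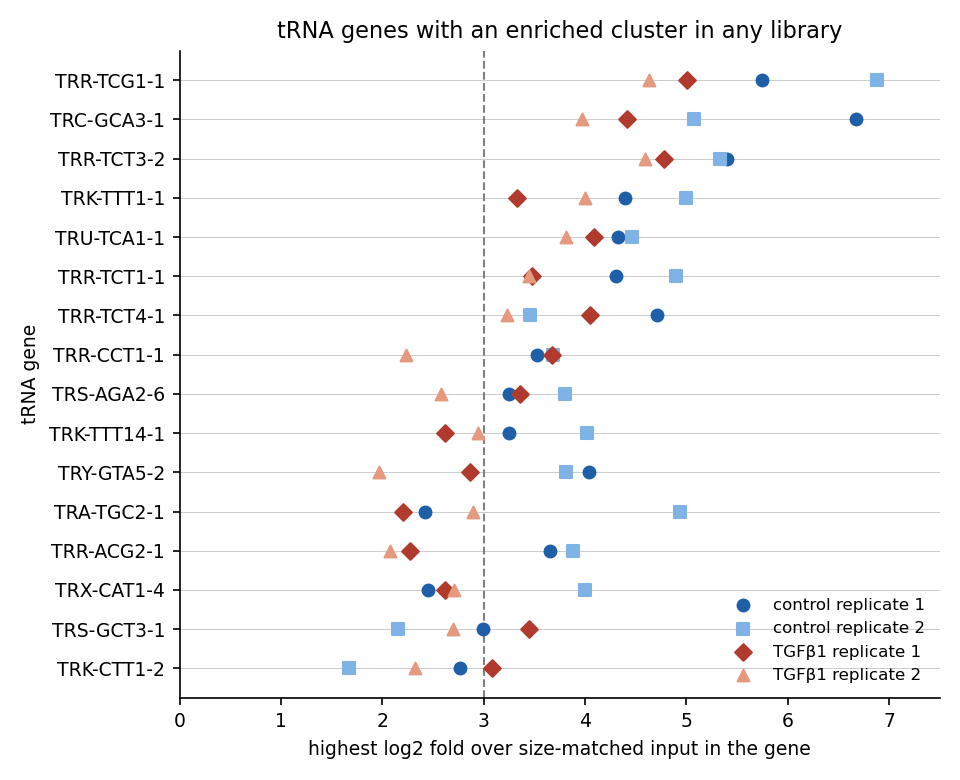
The highest log2 fold over size-matched input (horizontal axis) in each of the 16 tRNA genes with an enriched cluster (vertical axis, ordered by the mean over both conditions), 1 point per library; the dashed line is the fold limit of 3. All points of the 7 genes enriched in every library lie to the right of the line. Some of the other genes, such as TRR-ACG2-1 and TRY-GTA5-2, are shown only because they passed it in control.

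Other tRNA genes lay below the input in every library. Below the input means a log2 fold under 0, with no limit on size or p. In 13 of the 48 genes tested everywhere (27.1%) the highest log2 fold was below 0 in all 4 libraries, against 4.72% of all genes tested everywhere. Some of the 13 lay near the input, such as TRE-TTC4-1, at −0.21 and −0.25 in control, and −0.16 and −0.01 with TGFβ1. Glycine gene TRG-GCC2-4 had −2.65 and −2.56 in control, and −2.28 and −2.67 with TGFβ1. The elongator methionine gene TRM-CAT6-1 had −1.79 and −2.06 against −3.05 and −2.77. The asparagine genes TRN-GTT1-1 (−2.01 and −1.74 against −2.86 and −2.96) and TRN-GTT2-6 (−1.69 and −1.34 against −2.83 and −2.61) showed the same order, lower with TGFβ1. The lowest tRNA values were at the proline genes TRP-AGG2-5 and TRP-AGG2-7, at −5.09 and −4.43, which were tested in TGFβ1 replicate 2 alone.

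Loci that share 1 mature sequence by their name did not share 1 value. In 10 families with several loci, 2 loci each had a tested cluster. Of the tyrosine family TRY-GTA5, TRY-GTA5-2 was enriched in control, while TRY-GTA5-1 had −1.32, −0.44, −1.41 and −1.47. Of the serine family TRS-AGA2, TRS-AGA2-6 was enriched in 3 libraries, while TRS-AGA2-2 had −0.74 in control replicate 2 and −3.15 in TGFβ1 replicate 2. The alanine genes TRA-AGC2-1 (−1.62, −1.96, −1.60 and −1.78) and TRA-AGC2-2 (1.60, 1.89, 1.54 and 1.44) stayed on opposite sides of 0 in all 4 libraries. By their highest clusters, the lysine genes TRK-CTT1-1 (−0.53, 0.40, −0.73 and −0.57) and TRK-CTT1-2 also lay apart in every library. The highest TRK-CTT1-2 cluster lay at the 5′ end of the gene. Its cluster nearest the 3′ end had −0.93, −0.82, −1.15 and −1.90. How reads that match several loci were placed is not given in the sources used here, and its part in these differences was not tested. Genes alone in their family were covered about as often as others (35 of 273 and 35 of 224), and 10 and 6 of those covered were enriched in at least 1 library. In all 4 libraries, however, 6 genes alone in their family and 1 other were enriched. Genes alone in their family also made 8 of the 13 tRNA genes in the control list from both replicates and 8 of the 9 in that of TGFβ1.

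The reproducible lists hold 33 tRNA peaks in 13 genes for control and 22 in 9 genes for TGFβ1. These are 5.26% (95% Wilson interval 3.77 to 7.30) and 2.18% (1.45 to 3.28) of the peaks in each list. A share of genes is another measure than these shares of peaks. Of all genes tested in both libraries of a condition, 3.8% and 6.8% have a peak in the list of control and of TGFβ1. The 13 control tRNA genes stand beside 55 and 61 tRNA genes tested in control replicates 1 and 2. The 9 of TGFβ1 stand beside 51 and 64 in its replicates. The log2 folds of the tRNA peaks ran from 3.19 to 6.31 (median 4.16) in control and from 3.10 to 4.93 (median 3.92) in TGFβ1, beside list medians of 4.19 and 4.44. None of them comes near the highest folds of the lists, 9.17 and 9.49. Arginine genes held 14 of the 33 and 12 of the 22 peaks. Both lists contain TRC-GCA3-1, TRK-TTT1-1, TRR-CCT1-1, TRR-TCG1-1, TRR-TCT1-1, TRR-TCT3-2, TRR-TCT4-1 and TRU-TCA1-1, which are 61.5% of the control and 88.9% of the TGFβ1 genes. TRA-TGC2-1, TRR-ACG2-1, TRS-AGA2-6, TRX-CAT1-4 and TRY-GTA5-2 are in the control list alone, and TRS-GCT3-1 in the TGFβ1 list alone. How many of all listed genes are in both lists is not given here. Whether this split is particular to tRNA genes therefore cannot be read. A listed gene was not always enriched in each replicate, as the values of TRA-TGC2-1, TRX-CAT1-4 and TRS-GCT3-1 show.

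The peaks of a gene were mostly pieces of 1 site, and when joined they mostly ran from near the middle of the gene to past its 3′ end. Single peaks passed the annotated 3′ end in 13 of 33 cases in control and 6 of 22 with TGFβ1. The 33 control peaks make 13 sites when joined over gaps of at most 20 nt, 1 per gene. Counted from the 5′ end of the gene, with the strand taken from the peaks, the control sites began at a median of position 34, with a range of 0 to 53, where 0 is the base before the gene. They reached or passed the annotated 3′ end in 12 of 13 genes, by a median of 4 nt. In the TGFβ1 list, where 9 genes held 11 sites, the median first position per gene was also 34, and the peaks of 6 of 9 genes reached the 3′ end. Of the 8 genes in both lists, 5 had the same outer edges within 1 nt in each. TRR-TCG1-1 was covered from position 27 to 77 in control and 28 to 77 in TGFβ1, TRC-GCA3-1 from 36 to 75 and 36 to 76, and TRR-TCT3-2 from 46 to 90 in both. In 3 genes the listed TGFβ1 peaks were shorter: TRR-CCT1-1 (32 to 75 in control, 33 to 42 with TGFβ1), TRR-TCT4-1 (34 to 78 and 34 to 58) and TRK-TTT1-1 (12 to 76 and 28 to 76). At TRK-TTT1-1 the listed TGFβ1 peaks covered 28 nt in 2 sites. The joint lists hold no peak with a log2 fold under 3, so a shorter listed stretch need not be a shorter covered one. Over all tested clusters, TGFβ1 replicates 1 and 2 covered TRR-CCT1-1 from 33 to 78 and 32 to 75. They covered TRR-TCT4-1 from 32 to 78 and 34 to 78, and TRK-TTT1-1 from 11 to 76 and 17 to 76. At TRU-TCA1-1 the control peaks spanned the gene from position 0 to 94, covering 94 nt, while the listed TGFβ1 peaks covered 50 nt in 2 sites with a gap between them. Over all its tested clusters, TGFβ1 replicates 1 and 2 covered 94 and 93 nt of this gene, from position 0 to 93. TRX-CAT1-4, from 6 to 83, was the other control site that began at or before position 10.

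**Figure D3:**
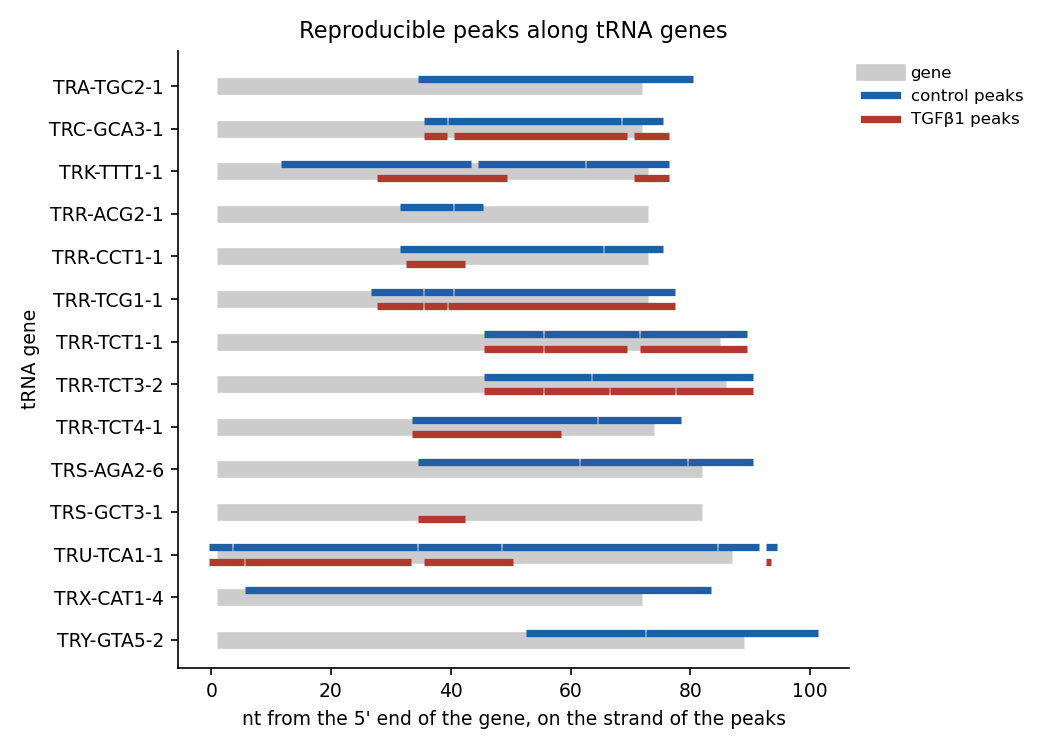
Reproducible peaks of control (blue) and TGFβ1 (red) along each of the 14 tRNA genes that carry them (grey bars, to scale); the horizontal axis is the distance in nt from the 5′ end of the gene on the strand of the peaks. Joined over a gene, the peaks mostly run from near its middle to a few nt past its 3′ end. The control peaks of TRU-TCA1-1 span the gene, and its listed TGFβ1 peaks leave a gap, nearly all of which its tested TGFβ1 clusters cover. The listed TGFβ1 peaks of TRK-TTT1-1 also leave a gap, which its tested TGFβ1 clusters cover.

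A median start near the middle of the gene was not particular to enriched genes, but the distance past the 3′ end differed. Over all clusters of the enriched genes in control replicates 1 and 2 and TGFβ1 replicates 1 and 2, the covered stretch began at median positions 34, 33, 33 and 34. In the genes with no enriched cluster the medians were 29, 33, 31 and 30. The medians hide early starts, at or before position 10. These were seen in 1 of 11, 2 of 14, 2 of 11 and 1 of 7 enriched genes. Among genes not enriched they were seen in 16 of 44, 9 of 47, 13 of 40 and 16 of 57. The covered stretch ended a median of 4 nt past the annotated 3′ end in the 11, 14, 11 and 7 enriched genes. It ended a median of 9, 9, 10 and 9 nt past it in the 44, 47, 40 and 57 genes not enriched. The ranges overlap, with up to 12 nt past the end among enriched genes. The annotation does not hold the CCA end, which is added after transcription.

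Many tRNA genes overlap another gene by position, so a cluster could come from a longer transcript where both lie on the same strand. The strand of these other genes is not known here, so the counts below include genes and clusters on either strand. Such an overlap was found for 47 of the 70 tested and 13 of the 16 enriched genes. Of the 14 tRNA genes in the reproducible lists, 12 overlap another gene. Of these other genes, 4 (BCAR3, KCTD2, ZFHX3 and ZNF767P) had tested clusters elsewhere, 82 over all libraries. None of these 82 clusters was enriched, a count too small to set apart from the 1.21% to 3.64% of all tested clusters per library. Outside TRR-TCT1-1, for example, BCAR3 reached a log2 fold of 1.38 and 1.26 in control, and 0.84 and 1.72 with TGFβ1. No tRNA gene had clusters on both strands in any library.

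The treatment comparison asks whether LARP6 sites differ between control and TGFβ1 cells, and on the share of enriched tRNA clusters the conditions overlapped. It stood at 30.4% ± 5.50 with control and 23.5% ± 9.22 with TGFβ1 (SD, n = 2, exact permutation test, two-sided, p = 0.667). The number of tRNA genes with an enriched cluster was 12.5 ± 2.12 and 9 ± 2.83 (SD, n = 2, exact permutation p = 0.667), and the median log2 fold was 1.11 ± 0.30 and 1.08 ± 0.47 (exact permutation p = 1). With 2 libraries per condition this two-sided test cannot give a p below 0.333. Without TGFβ1 replicate 2 the difference in share, −6.94 percentage points, shrinks to −0.42, and without TGFβ1 replicate 1 it is −13.5. The share of all clusters that were enriched differed the other way, at 1.65% ± 0.63 with control and 3.16% ± 0.67 with TGFβ1 (SD, n = 2, exact permutation p = 0.333).

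Gene by gene, tRNA folds were mostly lower in the TGFβ1 libraries, while those of all genes were mostly higher. Of the 48 tRNA genes tested in all 4 libraries, 25 (52.1%) had a highest log2 fold in both control libraries above both TGFβ1 libraries, and 2 had the reverse. Among all 4639 genes tested in all 4 libraries, 6.73% had control above and 40.9% had TGFβ1 above. The mean was lower in TGFβ1 for 41 of the 48 tRNA genes. The median difference of TGFβ1 minus control was −0.66 over tRNA genes and 0.56 over all genes, so the tRNA genes fell below the shift of all genes as well as below 0. These counts are over genes of the same 4 libraries and carry no test, and the larger number of tRNA peaks in the control list comes from the same libraries and adds no independent support. A fold over input also moves with the input level, and whether tRNA in the inputs differed between conditions was not tested, since the inputs have no values of their own here.

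**Figure D4:**
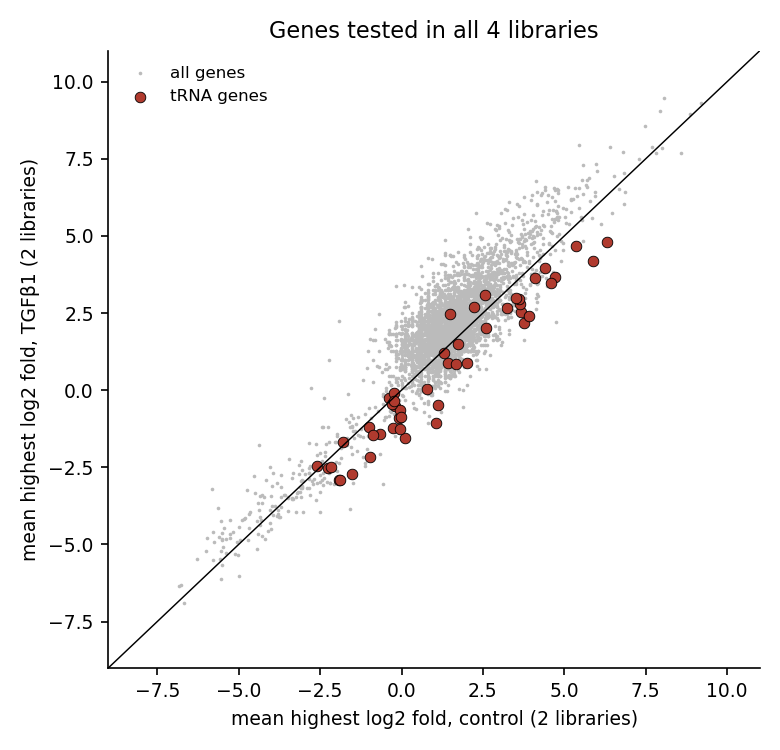
The mean highest log2 fold of each gene in the 2 TGFβ1 libraries (vertical axis) against that in the 2 control libraries (horizontal axis), for the 48 tRNA genes (red) and all 4639 genes (grey) tested in all 4 libraries; the line marks equal values. Of the 48 tRNA genes, 41 lie below the line, whereas most other genes lie above it.

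The direction was the same within each replicate number. A gene with both control values above both TGFβ1 values counts in both of the comparisons below, so they add no independent support. TGFβ1 was below control in 32 of 48 tRNA genes between the libraries numbered 1 and in 40 of 48 between those numbered 2, against 28.8% and 24.5% of all genes. When the median in place of the highest log2 fold of a gene was used, 25 of 48 tRNA genes again had control above and 2 TGFβ1 above, against 6.51% and 37.3% of all genes. Among the 2659 genes with at most 8 clusters per library, as tRNA genes have, 6.21% had control above and 40.3% TGFβ1 above. Other small RNA genes, mostly snoRNAs, lay between, with 13.8% of 196 genes with control above, 24.0% with TGFβ1 above and a median difference of −0.03.

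Few genes that process, modify and charge tRNA were enriched, at counts too small to set apart from the 2.84%, 4.85%, 6.26% and 10.8% of all genes in these libraries. Of 166 genes in 9 related lists, the mRNAs of 24 cytosolic aminoacyl-tRNA synthetases were all tested and none was enriched in any library. The same held for the tRNA splicing list (10 of 13 tested) and the end processing list (10 of 17 tested), which includes SSB, the gene of La, at 1.12, 1.07, 0.62 and 0.53. RNH1, which encodes the ribonuclease inhibitor that binds angiogenin, an enzyme that cuts tRNA, was enriched in replicate 2 of both conditions, with 2.29 and 5.09 in control, and 2.92 and 7.07 with TGFβ1. In TGFβ1 replicate 2 alone, 2 of the 16 genes of tRNA modification tested there (DUS3L and DNMT3A, the latter known as a DNA methyltransferase) were enriched.

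Other RNA polymerase III transcripts were mostly below the input, unlike most of the tested arginine tRNAs. RPPH1, the RNA of RNase P, which trims tRNA 5′ ends, had −4.55 and −4.29 in control, and −3.70 and −3.63 with TGFβ1, so TGFβ1 was higher there. RMRP had −2.78, −2.82, −2.41 and −2.52, and RN7SK, a regulator of transcription elongation, had −2.77, −2.91, −3.16 and −3.18. RN7SL2, a signal recognition particle RNA, was the only one of 13 tested that was enriched, in all 4 libraries, at 3.90, 5.64, 5.01 and 8.03, while its near-identical copy RN7SL1 was below 0, so the split between these copies is uncertain. Among mitochondrial tRNAs, 9 of 22 were tested, and TRNG, for glycine, was enriched in both TGFβ1 libraries at 3.67 and 3.46, with 2.88 in control replicate 1 and no cluster in control replicate 2.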

How the data were processed

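The data are peak lists of 4 LARP6 immunoprecipitates and 2 lists made from both replicates of a condition. Per the submitters' processing notes, cutadapt, UMI-tools and STAR were used with GRCh38, their versions and order unstated. How peaks were called and set against input, and how reads matching several loci were placed, is not given in the sources used here. Without a header, the columns were identified by their values: a deposited log2 fold over size-matched input and a deposited −log10 p-value, capped at 400, both the authors'. Per-library lists hold all tested clusters, and both joint lists hold none under 3 in either value. The 4 inputs were not analysed on their own.

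A cluster was assigned by its midpoint, with a flank of 50 nt. Other clusters went to a small RNA gene, then a protein-coding gene, then another gene, the shortest first. Gene bounds are those of RefSeq on GRCh38.p14, in a table without strand, exons or tRNA sequences. Coordinates are 1-based. Named are anticodon groups with an enriched cluster, genes with a reproducible peak or the highest of their group, and related genes enriched in at least 2 libraries. Other tRNA genes, and related genes outside this rule, were named after their values were seen. All 166 related genes matched, and the result of 1 of the 9 lists is not reported here. Library values were compared by two-sided exact permutation. Members, lists and tests were chosen with earlier results of these data known. Assignment was checked on simulated data. Computation used Python 3.11.15 with SciPy 1.17.1, pandas 2.3.3 and NumPy 2.4.6, and plots matplotlib 3.10.9.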

Additional observations from a re-analysis of the deposited data

How the results depend on the processing

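The difference in the share of enriched tRNA clusters (TGFβ1 minus control) kept its sign under every alternative run, from −0.87 percentage points with a log2 fold of at least 2 to −11.7 with at least 4, and from −13.5 to −0.42 when each replicate was left out. The difference in enriched genes ran from −5 to −0.5, and from −5.5 to −1.5 without a replicate. That in the median log2 fold (−0.03) changed sign, from −0.36 to 0.30 without a replicate, with 0.18 without control replicate 2 and 0.30 without TGFβ1 replicate 2, and was −0.68 (exact permutation p = 0.333) among tRNA genes that overlap no other gene. With a log2 fold of at least 4, 20 control and 11 TGFβ1 peaks were left. Among tRNA genes that overlap no other gene, chosen after seeing the data, 8 and 4 peaks were left, since fewer genes enter. Without a replicate, 26 to 36 of 48 tRNA genes had control above and 3 to 7 had TGFβ1 above. All genes gave 12.4% to 21.8% and 48.3% to 68.5%. Leaving out a library can only raise such counts, so they do not show whether the direction rests on a single library. Replicate numbers are shared by the conditions but nothing pairs them (correlation of deviations over 4639 genes 0.12). With the replicate block the share differed by −6.94 percentage points (exact p = 1), the genes by −3.5 and the median by −0.03, and no call changed. No strand alternative was run, since the reference gives no strand. Depth is unknown, so a gene without a cluster cannot be read as unbound.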

Other observations

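Small RNAs other than tRNA were for the most part under-represented in the immunoprecipitates. Of 174 snoRNA genes tested in all 4 libraries, 157 had a highest log2 fold below 0 in each, and all 10 snRNA genes did. None of these 184 genes was enriched in all 4 libraries, whereas 7 of 48 tRNA genes were. A further 33 loci with tRNA-like names outside the form used here, such as suppressor and undetermined tRNAs, had no tested cluster in any library.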
